A study of Triticum aestivum with 4 samples.

Results

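The data describe a group of 108 array probes, of 37826 on the array, that gave abundant signal in young spikes of normal bread wheat (Triticum aestivum) and at least 4-fold less signal in spikes of a pistillody line. Members were chosen by 3 conditions. A probe had to be well above background on both arrays of the normal line, to reach on average at least the 75th percentile of all probes there, and to be at least 2 log2 units lower on average in the pistillody line. A log2 unit is a doubling, and levels are given as log2 signal relative to the 75th percentile of the same array, so that a level of 0 equals that percentile. The members were thus picked by the difference between the lines, and their levels and differences are given as a description, without a test.

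Total RNA came from spikes 3 to 10 mm long, taken while florets differentiated, from plants grown in a field without treatment. The normal line was the cultivar Chinese Spring (CS), a standard in wheat genetics. The pistillody line, (cr)-CSdt7BS, has the nucleus of Chinese Spring in the cytoplasm of the wild grass Aegilops crassa and is ditelosomic for 7BS, which means that chromosome 7B is present only as its short arm. Each line was measured on 2 one-colour arrays, and the 2 lines differ in the cytoplasm, in the missing arm and in their floral organs at once, so that the parts of these differences in any value below cannot be told apart.

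In pistillody, organs that arise where stamens belong develop as pistil-like structures. Stamen identity in grasses depends on class B MADS-box transcription factors, the wheat counterparts of APETALA3 and PISTILLATA, acting with class C factors, and carpels form in their place where class B activity is lacking. Aegilops crassa cytoplasm is known to induce this change in wheat nuclei that lack a fertility-restoring gene, and Chinese Spring carries such a gene on the long arm of chromosome 7B. Bread wheat also holds related copies of most genes on the corresponding chromosomes of its other genomes, so that a probe may bind transcripts of more than 1 copy. In the files used here, 0 of the 37826 probes carried a described product or a chromosome position, while 0 of the 108 member names occurred among the identifiers of the 155467 genes in the RefSeq table of the assembly IWGSC CS RefSeq v2.1. Members are therefore called by their probe names, no role is given to any of them, and neither the floral genes named above nor markers of the tissue could be looked up among them.

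On the 4 arrays, between 29404 and 31589 probes were well above background, and the 75th percentile lay between 1998 and 2280 units of processed signal. Precision is limited by the small number of arrays. The labels call the experiments independent but do not say how separate the plants were, so the spread between arrays of 1 line may be technical. In whole spikes, fewer cells of a type and less RNA per cell cannot be told apart.

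The members stood far apart between the lines on every array. Their median level was 1.36 and 1.41 on Chinese Spring replicates 1 and 2, and it was -2.05 and -2.06 on pistillody replicates 1 and 2. The median member was 3.48 log2 units lower in the pistillody line, which corresponds to an 11.1-fold lower signal or 8.99% of the Chinese Spring signal. Over all 30177 probes tested the median difference was 0.02, and over the 9446 probes that met both conditions on Chinese Spring it was -0.045. The middle of the group was broad, with the quartiles at -5.37 and -2.42 and the extremes at -14.21 and -2.0.

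**Figure D1:**
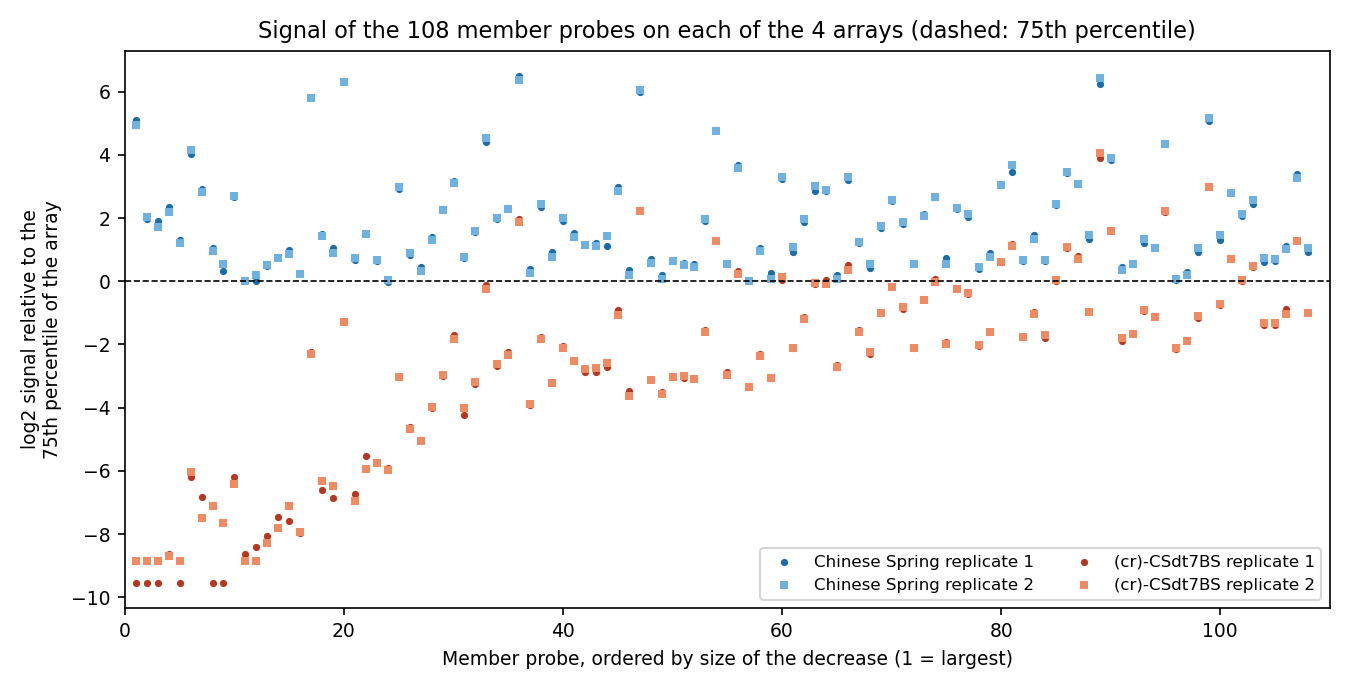
Level of each of the 108 members on each array (vertical axis, log2 signal relative to the 75th percentile of the array), with members ordered along the horizontal axis by the size of their decrease; circles and squares are replicates 1 and 2 of each line. The blue points of Chinese Spring lie at or just around 0 and above, while the red points of the pistillody line lie below them in every member and reach the lowest signals of the arrays at the left.

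All 108 members were called lower by limma at a Benjamini-Hochberg adjusted p under 0.05, against 30.0% of all tested probes called lower and 63.4% called in either direction. Both pistillody arrays lay below both Chinese Spring arrays in all 108, against 39.2% of all tested probes. The choice of members fixes both counts, so nothing is read from them. The smallest gap between the lower of the Chinese Spring arrays and the higher of the pistillody arrays was 1.89 log2 units in any member. The arrays of 1 line differed in the median member by 0.08 log2 units in Chinese Spring and by 0.05 in the pistillody line.

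Members were rare among bright probes. Of the 9446 probes that met both conditions on Chinese Spring, 1.14% were at least 2 log2 units lower in the pistillody line, which is the group itself, against 2.1% of all tested probes. The latter include dim probes, whose differences can rest on signals near background, so the 2 shares are not alike. In the same 9446 probes, 11 were at least 2 log2 units higher. At 1 log2 unit, 359 of them were lower and 77 were higher. These probes were admitted by their level in Chinese Spring, which favours decreases, so nothing is read from the imbalance. When the conditions were mirrored, with detection and level required on the pistillody arrays, 37 of 9457 probes (0.391%) were at least 2 log2 units higher there, with a median difference of 2.66. Of those 37, 1 was higher by a fitted 7 log2 units or more, and 22 of the 108 members were lower by that much. With the background corrected by normexp, a model-based method, instead (offset 50), the counts were 0 and 8.

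As a share of the summed signal of all 37826 probes, the members held 0.66% and 0.665% on the Chinese Spring arrays and 0.0692% and 0.0691% on the pistillody arrays. The members with the brightest spots dominate these sums, since the 10 highest held 57.7% and 57.8% of the members' signal on the Chinese Spring arrays. Brightness also depends on how well a probe binds, so it does not rank transcripts by abundance.

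The fitted decreases ranged from partial ones to those in which the signal was almost gone. There were 45 members lower by 2 to under 3 log2 units, 23 by 3 to under 4, and 18 by 4 to under 7. The remaining 22 had fitted values of -7 or lower, and with undetected members set to the bounds given below they were 20. Under normexp 8 members were lower by 7 or more, and the values of the 22 overlapped with those of other members: the smallest decrease among the 22 was -4.99, and the largest outside them was -5.64. These classes were set after the values were seen and depend on the background correction. The median levels in Chinese Spring were 1.41, 1.14, 1.76 and 1.36 in this order, with no trend along the classes. The pistillody medians went from -0.92 through -2.64 and -3.10 to -7.78, which follows from setting the classes by the decrease. The last of these medians rests in large part on signals below detection.

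**Figure D2:**
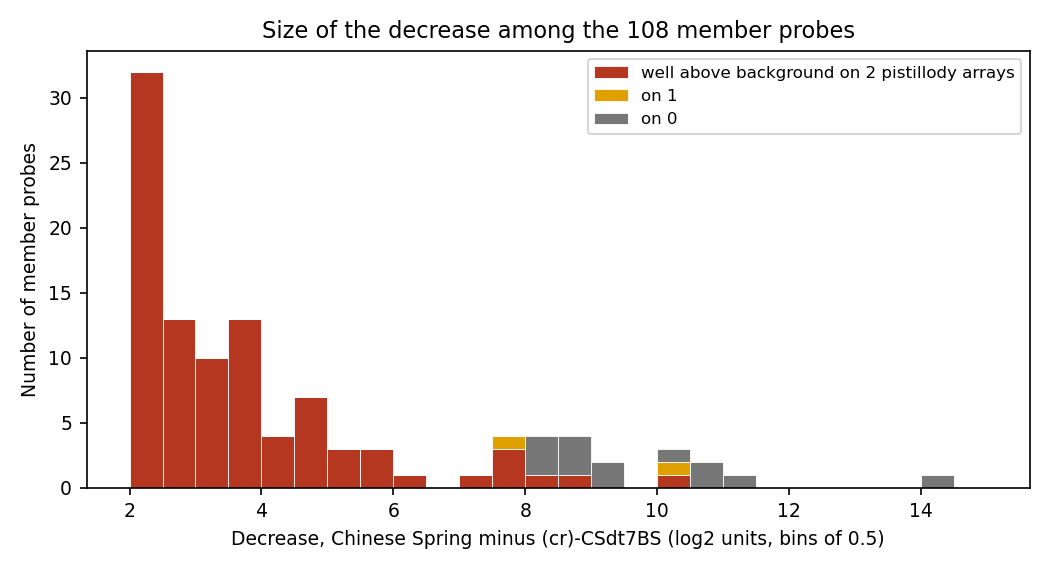
Number of members (vertical axis) by size of the decrease from Chinese Spring to the pistillody line (horizontal axis, log2 units, bins of 0.5), coloured by the number of pistillody arrays on which the probe was well above background. Most members lie at small decreases and were detected on both pistillody arrays, and the 13 members detected on neither lie beyond 8 log2 units by their fitted values, which are not measured levels.

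Among the 22 members with the largest fitted decreases, detection in the pistillody line often failed. Of the 108 members, 93 were well above background on both pistillody arrays, 2 on 1 of them and 13 on neither. All 15 members in the last 2 sets belonged to those 22 by their fitted values. For a member detected on neither array the signal gives only a bound, computed from the mean level in Chinese Spring and, on each pistillody array, the higher of the probe's own signal and the detection limit, the smallest signal that counted as well above background, at 15.3 and 23.7 units. These bounds ranged from at least 117-fold to at least 3810-fold lower, with a median of at least 224-fold. They are bounds for the processed signal only and depend on the background correction, since under normexp the same 13 members were 31.9-fold to 1140-fold lower, with a median of 49.4-fold.

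The widest separation was that of wheat0130Contig15964. Its processed signal was 68600 and 66900 units in Chinese Spring replicates 1 and 2, and 3.08 and 4.76 units in the pistillody line, which are the lowest signals that occur on those 2 arrays. The fitted difference of -14.21 log2 units therefore rests on the values the scanner software puts in place of signals near background, and the bound was at least 3810-fold lower. Under normexp the difference was -10.15.

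Another 3 members gave those same lowest signals on both pistillody arrays. Their bounds, and those of the members after them, hold for the processed signal only. MUGEST2003_23lib_Contig11785_460 had 7780 and 8870 units in Chinese Spring and was at least 467-fold lower. The probe rwhyd6f07 had 7490 and 7080 units there and was at least 410-fold lower. For wheat0130Contig11924 the Chinese Spring signals were 4960 and 4980 units, and the bound was at least 279-fold. Under normexp the 3 probes were 133-fold, 112-fold and 72.5-fold lower in this order. Among these probes the replicates of Chinese Spring differed most in rwhyd6f07, by 0.20 log2 units, and the pistillody values are not measurements of a level.

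MUGEST2003_23lib_Contig19354_1022 was similar, with 10100 and 9880 units in Chinese Spring against 5.77 and 5.27 in the pistillody line. Its bound was at least 562-fold lower, and under normexp it was 154-fold lower. The signals of 2 further members in this set show how little a value below background fixes. MUGEST2003_23lib_Contig15827_948 went from 4170 and 4180 units to 3.08 and 15.6, so that its difference was -8.13 without pistillody replicate 1 and -10.54 without replicate 2. MUGEST2003_23lib_Contig6671_255 went from 2510 and 3140 units to 3.08 and 10.9, and its difference was -8.08 and -9.96 in the same way. The bound was at least 235-fold lower for the first and at least 158-fold for the second. Under normexp they were 61-fold and 40.7-fold lower.

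The probes wheat0130Contig4540 and MUG010A02R990529 sat at the lower edge of the level condition and were also detected on neither pistillody array. The first had 1990 and 2190 units in Chinese Spring against 5.72 and 4.76, a bound of at least 117-fold. The second had 2000 and 2480 units against 6.73 and 4.76, a bound of at least 125-fold. The remaining 4 members detected on neither pistillody array, wheat0130Contig13511, wheat0130Contig9122, wheat0130Contig4035 and wheat0130Contig4551, were named after their values were seen, and their bounds ranged from at least 139-fold to at least 224-fold.

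**Figure D3:**
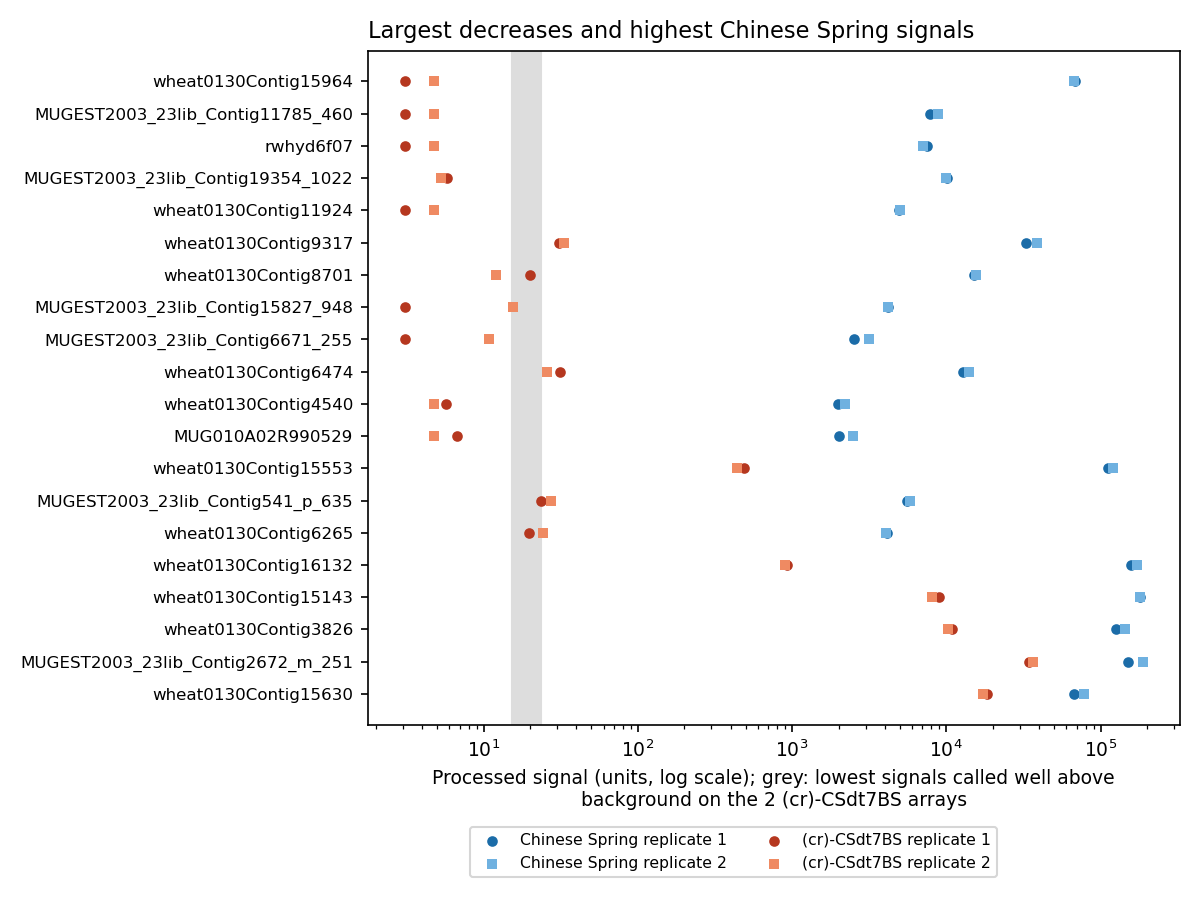
Processed signal (horizontal axis, units, log scale) on each of the 4 arrays for 20 members, namely those with the largest decreases overall and among fully detected members and those with the highest Chinese Spring level, in order of the decrease with the largest at the top. Grey marks the range between 15.3 and 23.7 units, the detection limits of the pistillody arrays, and several members at the top lie to its left while the bright probes at the bottom stay far to its right.

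Decreases of this size were also measured in probes that were well above background on all 4 arrays, where both ends of the difference are observed. There were 7 such members with a decrease of 7 log2 units or more, of which 4 stayed at 7 or more under normexp. The signal of wheat0130Contig9317 was 32800 and 38800 units in Chinese Spring and 30.9 and 33.1 units in the pistillody line, a log2 difference of -10.22. The software's own error estimate for the pistillody signals was 4.35 and 5.78 units, and under normexp the difference was -8.54. wheat0130Contig6474 went from 12800 and 14000 units to 31.3 and 25.8, a difference of -8.98, or -7.16 under normexp. These pistillody signals lie only a little above the detection limits, and the differences moved with the background correction.

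The firmest of the large decreases were those of probes that stayed bright enough to be measured well in the pistillody line. wheat0130Contig15553 had Chinese Spring signals of 111000 and 120000 units and pistillody signals of 487 and 440 units, so that 0.375% of the signal was left. The log2 difference was -8.06, and -7.85 under normexp. wheat0130Contig16132 had 157000 and 172000 units against 927 and 893, with 0.517% left and a difference of -7.60, or -7.49 under normexp. In both probes the replicates of a line differed by a small fraction of the difference between the lines, with SDs of 0.01 and 0.06 (n = 2) for wheat0130Contig15553 and of 0.01 and 0.01 (n = 2) for wheat0130Contig16132, in Chinese Spring and the pistillody line respectively.

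The other fully detected members of this class were dim in the pistillody line. MUGEST2003_23lib_Contig541_p_635 had 5590 and 5840 units in Chinese Spring against 23.6 and 27.2, a log2 difference of -7.92. wheat0130Contig6265 had 4140 and 4070 units against 19.6 and 24.4, a difference of -7.65. Under normexp the 2 differences were -6.04 and -5.57. The seventh, wheat0130Contig15410, named after its values were seen, was the member at -7.25. Among the pair detected on 1 pistillody array, wheat0130Contig8701 went from 15200 and 15500 units to 20 and 12.1, where the first pistillody value was called well above background and the second was not. The other was wheat0130Contig13434 at -7.54, also named after its values were seen.

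**Figure D4:**
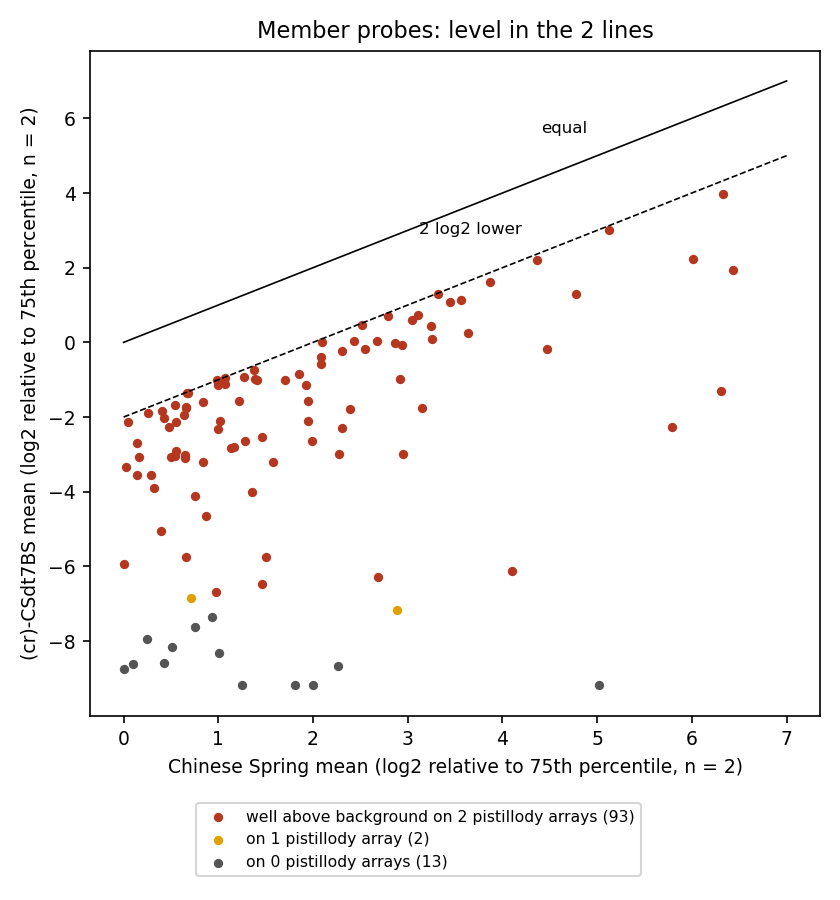
Mean level of each member in the pistillody line (vertical axis) against its mean level in Chinese Spring (horizontal axis), both as log2 signal relative to the 75th percentile with n = 2 arrays, coloured by detection on the pistillody arrays; the solid line marks equal levels and the dashed line a difference of 2 log2 units. Partial decreases follow the dashed line at all Chinese Spring levels, and the undetected members lie in a band between about -9 and -7 at the bottom.

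Most members kept a measurable signal. On both pistillody arrays 66 members were at or above the signal of the median probe, and 41 were below it on both. The mean level of 20 members stayed at or above the 75th percentile in the pistillody line as well, so that these probes still ranked among the bright ones of the array. Of these 20, 19 were lower by under 4 log2 units. The exception was wheat0130Contig15143, with 180000 units on both Chinese Spring arrays and 9000 and 8040 units on the pistillody arrays, a difference of -4.50 that left 4.41% of the signal.

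Among the members with the highest Chinese Spring level, the size of the decrease varied widely. Besides wheat0130Contig15143, wheat0130Contig16132 and wheat0130Contig15553, the 6 highest included wheat0130Contig3826, MUGEST2003_23lib_Contig2672_m_251 and wheat0130Contig15630. The signal of wheat0130Contig3826 was 126000 and 143000 units in Chinese Spring and 10900 and 10200 in the pistillody line, a difference of -3.77 with 7.34% left. MUGEST2003_23lib_Contig2672_m_251 had 150000 and 188000 units against 34400 and 36300, a difference of -2.35 with 19.6% left, and it was the member with the highest level in the pistillody line. wheat0130Contig15630 had 67700 and 78100 units against 18400 and 17300, a difference of -2.13 with 22.9% left. The retained share in these 6 probes thus ran from under 1% to over 22% of the Chinese Spring signal.

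The rule set limits on both the level in Chinese Spring and the size of the decrease. Their relation among the members is therefore only described, and nothing is read from it. The Spearman rank correlation was -0.04 over the 108 members and 0.04 over the 93 that were well above background on all arrays. These are descriptions across probes, which share the same 4 arrays and are not independent, and both measures contain the Chinese Spring level. In members detected on neither pistillody array, the decrease also rests on signals below detection. The share of probes that belonged to the group was 1.35% at Chinese Spring levels from 0 to 1 (41 of 3047), 1.17% from 1 to 2 (27 of 2298), 1.28% from 2 to 3 (19 of 1490) and 1.12% from 3 to 4 (10 of 896). Above a level of 4 it was between 0.521% and 0.795%, where each class rests on 3 or 4 members.

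**Figure D5:**
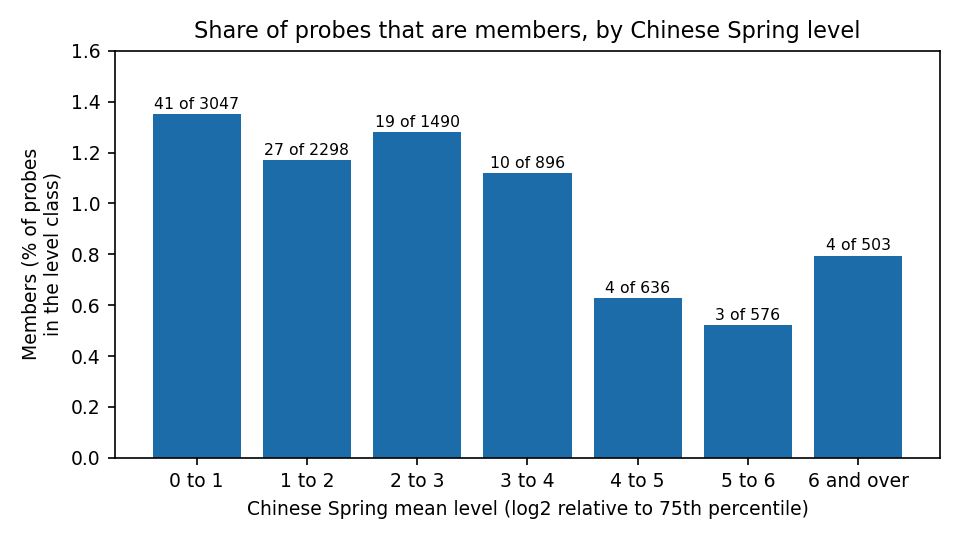
Share of probes that are members (vertical axis, percent) in classes of Chinese Spring mean level (horizontal axis, log2 relative to the 75th percentile), among the 9446 probes well above background on both Chinese Spring arrays and at or above the 75th percentile; the counts stand over the bars. The share lies between 1.12% and 1.35% up to a level of 4 and below 1% above it.

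At the edges of the rule, members and other probes passed into each other without a step. Just inside the limit on the decrease lay wheat0130Contig6465 at -2.0, wheat0130Contig6087 and whfl_allContig1530 at -2.02 each, and wheat0130Contig14680 at -2.03. Just outside it lay wheat0130Contig7504 and MUGEST2003_23lib_Contig11471_701 at -1.98 each, wheat0130Contig14953 also at -1.98, and whfl_allContig543 at -1.96. For the first member inside, the signals were 3790 and 4520 units in Chinese Spring and 1130 and 1080 in the pistillody line. For the first probe outside they were 2250 and 2480 against 673 and 607.

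Some strong decreases missed the group only by their level in Chinese Spring. whsh_allContig596 had a level of -0.01 there, with 1950 and 2200 units against 90.6 and 75.8 in the pistillody line, a difference of -4.74. wheat0130Contig13852 had a level of -0.03 and a difference of -3.97, MUGEST2003_23lib_Contig20768_385 a level of -0.02 and a difference of -2.83, and wheat0130Contig540 a level of -0.01 and a difference of -2.19. Just inside that limit were wheat0130Contig4540, rwhsl30p21, wheat0130Contig8513 and whsh_allContig779, at levels between 0.00 and 0.04. Their differences were -8.74, -5.95, -3.35 and -2.16, so that this edge cut through large and small decreases alike.

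Replicate agreement was close where the probe was detected. In the 93 members well above background on all arrays, the 2 pistillody arrays differed by 0.05 log2 units in the median and by 0.42 at most. In the 15 others they differed by 0.49 in the median and by 2.41 at most. The largest differences between the Chinese Spring arrays reached 0.30 log2 units, and those of wheat0130Contig2157, with 4370 and 5840 units, and wheat0130Contig14320, with 22000 and 27600 units, were among the 4 largest. The pistillody signals were 351 and 364 units for the first and 5130 and 4730 units for the second. The rule required a lower mean there, so nothing is read from the separation of the lines.

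The names of the probes were not used by the rule. Names beginning with wheat0130Contig made up 74 of the 108 members (68.5%), 56.3% of the 9446 probes that met both conditions on Chinese Spring, and 36.9% of all probes. MUGEST2003_23lib_Contig names made up 12 members (11.1%), against 12.1% and 20.1%. Single names beginning with wh or rwh made up 9 members (8.33%), against 12.8% and 32.6%, and there were 5 members each named whfl_allContig and whsh_allContig and 3 with single MUG names. The median difference was -3.68 for the wheat0130Contig members and -2.73 for the MUGEST2003_23lib_Contig members, and 7 and 4 of them were detected on neither pistillody array. The sources used here do not explain these names, and probes of several names may bind 1 transcript, so the 108 probes need not stand for 108 genes.

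For a few members the array held a second probe of nearly the same name. Of these partners, only those of rwh23m08 and rwhsl30p21 were well above background on the pistillody arrays. The probe rwh23m08 went from 3300 and 3200 units in Chinese Spring to 598 and 556 in the pistillody line, a log2 difference of -2.59. Its partner wh23m08, which lacks only the leading r, went from 701 and 722 to 122 and 119, a difference of -2.66. For this pair both probes thus gave nearly the same decrease at different brightness.

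The other partner detected in the pistillody line decreased far less than its member. The probe rwhsl30p21 went from 1960 and 2240 units to 37.9 and 34.6, a difference of -5.95, whereas whsl30p21 went from 262 and 259 units to 223 and 220, a difference of -0.33. The probe rwh26e09 went from 2760 and 2700 units to 70.2 and 65.3, a difference of -5.43. Its partner wh26e09 gave 30.3 and 41.1 units in Chinese Spring and 15 and 14.5 in the pistillody line, where it was not well above background on either array. This partner was dim in Chinese Spring too, so its fitted difference of -1.36 cannot show whether it fell as far. Whether the names of a pair mark the same transcript is not stated in the labels or files.

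Of the remaining partners by name, chosen after the names were seen, none was well above background on any pistillody array. MUGEST2003_23lib_Contig2672_p_171, which shares the contig name of the bright member ending in m_251, had 25.8 and 24.8 units in Chinese Spring and 6.88 and 7.18 in the pistillody line, so that it was detected in Chinese Spring only, on both arrays. Its fitted difference was -1.95, against -2.35 for that member, and it rests on undetected pistillody signals. MUGEST2003_23lib_Contig541_m_689 was well above background on 1 array of Chinese Spring only. rwhr4i03, the partner of the member whr4i03, and wheat0130Contig15702, that of wheat0130Contig15702_2, were below detection on all 4 arrays.

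The measures of spot quality in the files were as follows. No member was saturated on any array. The SD over pixels was 11.7% and 9.35% of the mean in the median member on the Chinese Spring arrays, against 11.6% and 9.42% for the 9446 probes, and 12.9% and 13.4% on the pistillody arrays, against 10.6% and 9.84%. The part of this higher pixel spread, which went with the dimmer spots, in the differences between the lines was not tested. Members lay scattered over the array, with 26, 27, 23 and 32 in 4 successive blocks of rows of equal height, and 4 members had another within 2 rows and columns. All 4 arrays shared 1 slide, with Chinese Spring at positions 1 and 3 and the pistillody line at positions 2 and 4.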

How the data were processed

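Young spikes of both lines were measured on 4 one-colour Agilent arrays with Cy3-labelled cRNA, and groups and replicate numbers came from the sample titles. The authors deposited scanner output with a processed signal intensity for each spot, which was used here. The software was Agilent Feature Extraction 9.5.1.1 per the file headers, with background subtracted and small substitute values near background. The series' value table held the same intensity: 0 of its 156972 values differed from those deposited in the scanner files, so it is linear and not centred, with medians from 253 to 292 units per array. The detection and outlier flags deposited in the same files were used as given. Whether the authors normalized between arrays is not stated in the labels or headers.

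From these, log2 signals were scaled to each array's 75th percentile, taken over 37826 probes. Left out were 1417 control spots and 29 probes flagged as outliers. The fit used limma 3.58.1 in R 4.3.3 (lmFit, eBayes with intensity trend, two-sided) on the 30177 probes that 1 line or the other had well above background on its 2 arrays and line as its sole term, and was tested on simulated data. The members and lists were chosen with earlier results of these data known. Named are the 12 largest decreases, the 6 highest Chinese Spring levels, the 6 largest decreases detected on all arrays, the 4 probes on each side of each limit, the 4 largest differences between arrays of each line, and pairs by name, unless stated otherwise. A list of floral and tissue marker genes could not be used because no probe carries a gene description.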

Additional observations from a re-analysis of the deposited data

How the results depend on the processing

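Alternatives were another background correction, quantile normalization, centring on the median, no filter on dim probes, outlier flags kept, no intensity trend, the replicate block and leaving out each array. All 108 members stayed lower and called by limma in each (108 to 108 without single arrays), which the choice of members on these arrays largely fixes. Without 1 array, the spread of a line came from the other line's pair. All tested probes called changed numbered 15397 to 20425 when single arrays were left out, and 21582 with the replicate block, of which 19116 were also called without it; the block changed no call of a member. No label says that a replicate number marks a shared plot or day, and arrays of the same number deviated from their line's mean with a correlation of 0.09 over probes. The rule gave 104 members under normexp, all among the 108, and 106 to 111 without single arrays. It gave 63 members at a decrease of 3 log2 units and 359 at 1. With the limit on the Chinese Spring level at 1 it gave 67, and at -1 it gave 158. The median difference was -3.27 under normexp, whose offset narrows differences of dim probes, -3.08 among members well above background on all 4 arrays (an alternative chosen after seeing the data), and -3.51 to -3.44 without single arrays. Members lower by at least 7 log2 units numbered 22, but 8 under normexp, and 22 to 22 without single arrays (alternatives chosen after seeing the data). Members detected on neither pistillody array numbered 13. Without pistillody replicate 1 or 2, only 1 array of that line was left, and 15 and 13 members were undetected on it. Under normexp 31 of the 42 named probes moved by more than their replicate SD, and under quantile normalization 11 did. The latter included the bright probes wheat0130Contig15553 and wheat0130Contig16132, at -7.97 and -7.52. None of the named probes changed direction in any alternative. Signals near background limit the size of the largest decreases.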
